A study of Homo sapiens with 12 samples.

Results

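The comparison described here sets HCT116 cells lacking both ANKRD52 and CSNK1A1 against the parental HCT116 line, with 3 libraries in each group out of 12 in the series. The members were chosen by the sample titles, and the results cover the 11877 genes with a mean log2 CPM (read counts scaled to library size) of at least 1 among 12756 listed, except where a lower level is stated. HCT116 is an established human colorectal carcinoma line. The parental group carries no knockout, the double-knockout group lacks both genes, and the other groups of the series lack AGO2 or ANKRD52 alone. All cells were harvested 48 hours after seeding, and polyadenylated RNA was sequenced. The labels give neither the way the genes were disrupted nor whether a group is 1 clone or a pool, and a trait of such a clone cannot be told apart from the knockouts.

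ANKRD52 is a regulatory subunit of protein phosphatase 6. In the microRNA pathway this phosphatase removes phosphates from AGO2, the Argonaute protein that carries microRNAs to messages, and CSNK1A1, casein kinase 1 alpha, adds them. CSNK1A1 also has a separate role in the beta-catenin destruction complex, where it primes beta-catenin for degradation, and it restrains p53. HCT116 cells keep normal p53 and carry a mutant beta-catenin allele.

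Levels below are group levels in CPM, rebuilt from the mean level and the 3 fold changes that the authors deposited, so there is 1 value per group and no value per library. Fold changes and adjusted p-values come from the authors' edgeR likelihood ratio test, adjusted over all listed genes, and a gene was called at an adjusted p under 0.05. Approximate standard errors (SE) were rebuilt from the deposited statistics. The labels do not say that replicates came from separate cultures. Each p-value therefore reflects library-to-library spread alone, possibly of technical origin. Library depth is unknown. Levels are not per unit of transcript length and are compared only within a gene.

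Both targeted messages were lower in the double knockout. CSNK1A1 stood at 204 CPM in parental cells, 209 without ANKRD52 alone and 38.2 without both. Its log2 fold change in the authors' deposited table was -2.42 (approximate SE 0.35, edgeR adjusted p = 1.7e-10), or 5.35-fold lower. ANKRD52 stood at 155 CPM in parental cells and 98.9 CPM in the double knockout, a log2 fold change of -0.65 in the authors' deposited table (approximate SE 0.14, edgeR adjusted p = 2.3e-05). In the ANKRD52 knockout its level was 159 CPM, so the ANKRD52 message was reduced in the double knockout and not in the single one. The near-identical genes CSNK1A1P1, a pseudogene, and CSNK1A1L fell with log2 fold changes of -5.39 and -2.75 in the authors' deposited table. Reads of CSNK1A1 could have been counted for either of them, so their falls are uncertain.

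Genes for partners and relatives of the targeted proteins moved both ways. Of the protein phosphatase 6 subunits 28.6% were called, against 43.0% of all listed genes. Of 7 measured subunits of protein phosphatase 6, ANKRD52 and PPP6R2 fell, with PPP6R2 at a log2 fold change of -0.58 in the authors' deposited table, and the catalytic subunit PPP6C had a value of -0.13 that was not called. Among the other casein kinase 1 genes, CSNK1G1 rose by 0.34 and CSNK1G2 fell by 0.40 log2 units in the authors' deposited table. CSNK1D and CSNK1E, which encode the delta and epsilon kinases, had values of 0.16 and 0.21 there and were not called. The casein kinase 1 list, which also holds the alpha and FAM83 genes, had 14 measured genes, of which 4 rose and 6 fell. The shares over all listed genes were 22.9% higher and 20.1% lower. FAM83 proteins anchor casein kinase 1 alpha at sites in the cell. FAM83A (mean log2 CPM under 1), FAM83B and FAM83H rose by 2.25, 1.20 and 0.58 log2 units in the authors' deposited table, and FAM83F and FAM83G fell by 0.38 and 0.25.

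Loss of both genes was accompanied by change across much of the transcriptome. Of the 11877 genes, 5165 (43.5%) were called, 2670 of them higher (22.5%) and 2495 lower (21.0%). Over all 12756 listed genes the counts were 5486 called (43.0%), 2919 higher (22.9%) and 2567 lower (20.1%). Rises reached further than falls. Of the called genes 695 rises and 236 falls were at least 2-fold, and 115 rises and 16 falls were at least 8-fold. The level filter uses the mean over all 12 libraries. A gene barely detected in parental cells could therefore pass it through its level in the double knockout, as many of the largest rises did. The contrast of rises and falls depends in part on this filter. The median size of a called rise was 0.61 on the log2 scale and of a called fall 0.47, while the median over all 11877 genes was 0.00. With an F tail of 8 residual degrees of freedom (the F test below) in place of the chi-square tail the authors used, 3555 genes were called, 1900 higher and 1655 lower. Over all listed genes the F test called 3784 (29.7%), 16.3% higher and 13.3% lower. In bulk RNA fewer cells of a type and less RNA per cell cannot be told apart.

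**Figure D1:**
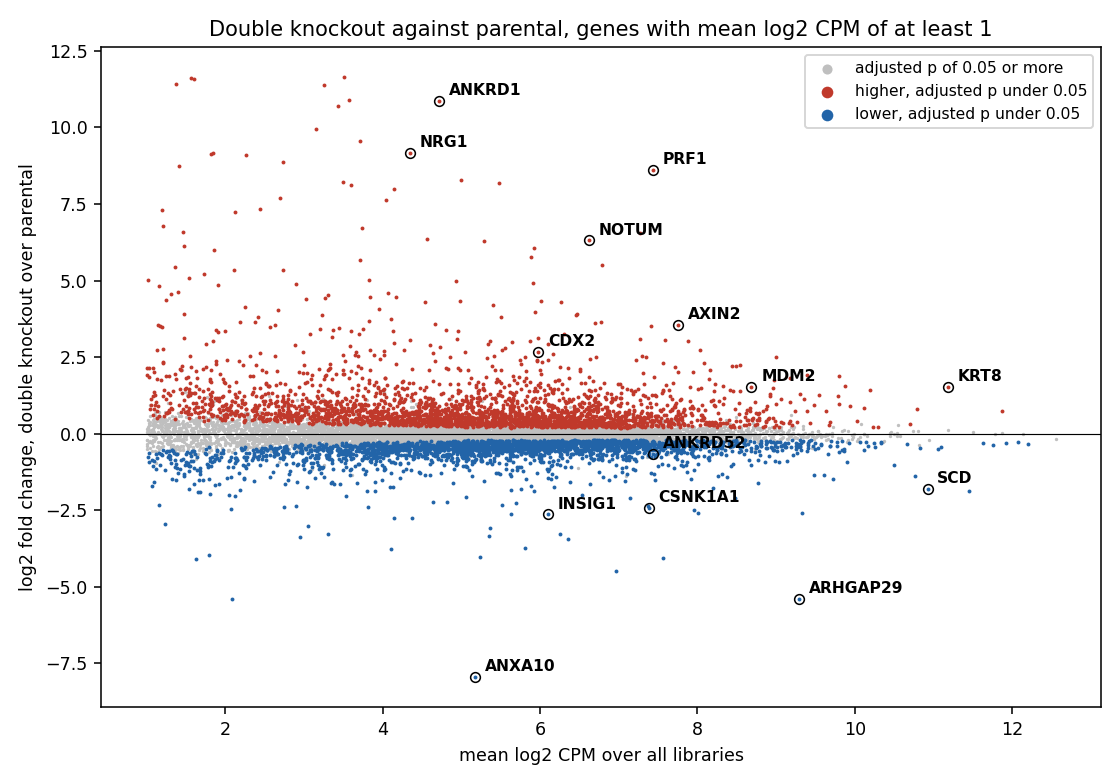
Log2 fold change of the double knockout over parental (vertical axis) against mean log2 CPM (horizontal axis) for 11877 genes, 1 point per gene, with red and blue for genes called higher and lower. Rises from a parental level above that of 3 reads extend to 10.86 (ANKRD1) and falls to -7.95 (ANXA10). Points above 8 include 10 genes with parental levels under that of 3 reads, whose height depends on the prior count, and some of the genes named in the text are ringed.

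All but PRF1 of the 15 genes that rose most were below 0.5 CPM in parental cells. ANKRD1, a muscle-type ankyrin repeat protein and a YAP target, went from 0.0546 to 102 CPM, and PLEKHS1 went from 0.0355 to 35.2 CPM. HAS2, which makes hyaluronan, went from 0.0674 to 51.0 CPM, and NRG1, a ligand of the ERBB3 and ERBB4 receptors, from 0.140 to 81.0 CPM. The desmosomal cadherin DSG3 went from 0.0351 to 19.1 CPM and the membrane mucin MUC13 from 0.0554 to 26.0 CPM. At such levels the size of a fold change depends on the prior count added to low values. In the authors' deposited table the log2 fold changes of the 6 ranged from 8.87 (MUC13) to 10.86 (ANKRD1), and the approximate SE ranged from 0.31 (NRG1) to 1.96 (ANKRD1).

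The highest parental level among the 15 was that of PRF1. This gene, which encodes perforin, the pore-forming protein of cytotoxic lymphocytes, went from 1.73 to 676 CPM, a log2 fold change of 8.61 in the authors' deposited table (approximate SE 0.56, edgeR adjusted p = 1.7e-51). NEDD9, a focal adhesion scaffold, went from 0.401 to 125 CPM, and SPARC, a matrix protein, from 0.323 to 92.9 CPM. CEACAM1, a cell adhesion molecule, went from 0.266 to 67.9 CPM and EDAR, a receptor of skin appendage development, from 0.330 to 65.3 CPM. The integrin ITGB7 (0.152 to 44.9 CPM), the iron-binding lipocalin LCN2 (0.170 to 47.0 CPM), the cadherin FAT2 (0.120 to 24.7 CPM) and EPS8L3 (0.131 to 21.2 CPM) complete the 15 rises. Their log2 fold changes lay between 7.34 (EPS8L3) and 8.29 (NEDD9) in the authors' deposited table, PRF1 apart. A further 10 genes with fold changes of this size had parental levels under 0.0345 CPM, the implied level of 3 reads over the group, and no fold is given for them. CSMD3, TSPAN8, ALPP and APOBEC3G reached 45.2, 38.1, 47.3 and 41.6 CPM in the double knockout, and ARHGEF38, GPR55, KCNB2, KRT14, ALPPL2 and KMO reached 10.4 to 14.3 CPM.

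Falls were led by ANXA10, an annexin of gastric epithelium, which went from 77.8 to 0.314 CPM. Its log2 fold change in the authors' deposited table was -7.95 (approximate SE 1.02, edgeR adjusted p = 1.5e-13). ARHGAP29, a GTPase-activating protein, went from 731 to 17.4 CPM, 42.0-fold lower, with a log2 fold change of -5.39 in the authors' deposited table (approximate SE 0.33, edgeR adjusted p = 1.2e-55). ARHGAP29 had the highest parental level of the 15 genes that fell most. CYP24A1, which inactivates vitamin D, went from 135 to 6.06 CPM, and the nuclear receptor NR2F1 went from 230 to 13.8 CPM. The Wnt ligand WNT16 went from 112 to 10.2 CPM and UNC13A, a vesicle priming factor, from 107 to 11.1 CPM. In the authors' deposited table the log2 fold changes of these 4 genes lay between -4.48 (CYP24A1) and -3.28 (UNC13A). MALL, HS3ST1, DPEP1, SPOCK3, TFPI, RAMP1, GPR110 and TNFSF18, with the pseudogene named above, complete the 15 largest falls, at log2 fold changes from -4.11 to -3.28 in the authors' deposited table apart from the pseudogene. TNFSF18 fell from 0.977 to 0.0567 CPM in the double knockout but stood at 9.99 CPM in the ANKRD52 knockout.

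The smallest p-values marked a set of changes that were large against their spread. Higher were DOCK4, an exchange factor for Rac (10.7 to 150 CPM), A4GALT, the Gb3 glycolipid synthase (12.9 to 204 CPM), RCN1, a calcium-binding protein of the endoplasmic reticulum (155 to 647 CPM), and the kinase ROCK2 (174 to 829 CPM). NR4A3, an orphan nuclear receptor, went from 0.968 to 49.1 CPM and PVRL4 (nectin-4) from 0.893 to 15.8 CPM. In the authors' deposited table their edgeR adjusted p ran from 1.1e-131 (DOCK4) to 9.4e-80 (PVRL4), and NRG1 had the smallest of all, 3.5e-183. CSMD3, CDX2 and CEACAM1 complete the 10 rises with the smallest p. Lower were 3 sterol genes (INSIG1, LSS, IDI1), their regulator SREBF2, MALL, ARHGAP29, the pseudogene CSNK1A1P1, AP3S1 of the AP-3 adaptor (368 to 140 CPM), the noncoding FLJ42709 (24.7 to 3.62 CPM) and the connexin GJC1 (107 to 33.9 CPM).

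**Figure D2:**
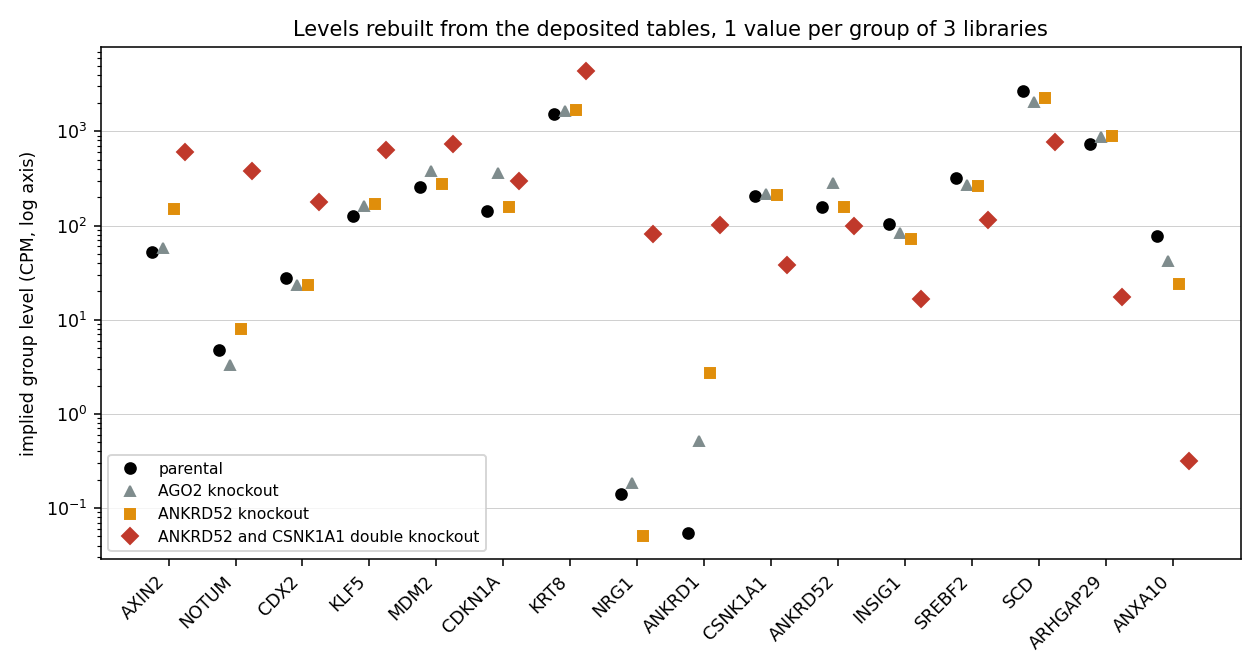
Implied level in CPM on a log axis (vertical) of 16 genes (horizontal) in the 4 groups, 1 marker per group, with no error because the tables give no value per library. The double knockout (red diamonds) stands above the other groups for AXIN2 (602 CPM) and NOTUM (377 CPM), and below them for INSIG1 (16.7 CPM) and ARHGAP29 (17.4 CPM).

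Wnt feedback genes were raised strongly. Of 17 measured members of a list of 26 Wnt feedback and target genes, 11 rose and 2 fell, with a median log2 fold change of 1.28, against 22.9% rising and 20.1% falling among all listed genes. NOTUM, a secreted enzyme that inactivates Wnt ligands, went from 4.75 to 377 CPM, 79.3-fold higher, with a log2 fold change of 6.31 in the authors' deposited table (approximate SE 0.79, edgeR adjusted p = 5.5e-14). AXIN2, the negative feedback scaffold of the destruction complex, went from 51.8 to 602 CPM (log2 fold change 3.54 in the authors' deposited table, approximate SE 0.36, edgeR adjusted p = 2.6e-21). In the ANKRD52 knockout AXIN2 stood at 150 CPM and NOTUM at 8.04 CPM.

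Other antagonists of the pathway rose with them. The transcription factor SP5 (1.59 to 18.7 CPM), the Dishevelled inhibitor NKD1 (21.0 to 173 CPM), the receptor TNFRSF19 (5.49 to 35.1 CPM) and the receptor-removing ligase ZNRF3 (32.6 to 164 CPM) rose by 3.55, 3.04, 2.68 and 2.33 log2 units in the authors' deposited table. Its relative RNF43 rose by 1.24 there (edgeR adjusted p = 0.043), a call lost under the F test (adjusted p = 0.109). Among transcription and growth targets, TCF7 rose by 1.28, SOX9 by 1.57, EPHB3 by 0.90 and the cyclin CCND1 by 1.88 log2 units in the authors' deposited table. Levels of CCND1 went from 445 to 1641 CPM.

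Some Wnt genes went the other way or did not pass the test. DKK1, a secreted antagonist, fell from 224 to 43.2 CPM and CD44, a hyaluronan receptor, from 1015 to 362 CPM, with log2 fold changes of -2.38 and -1.49 in the authors' deposited table. MYC (641 to 471 CPM, log2 fold change -0.44 in the authors' deposited table), NKD2 (-0.48), EPHB2 (-0.36) and PROM1 (0.02) were not called. The destruction complex itself moved less: of 15 measured members AXIN2 rose and CSNK1A1, AXIN1 and APC2 (mean log2 CPM under 1) fell. Over all listed genes 22.9% rose and 20.1% fell. CTNNB1, the beta-catenin message, was 396 CPM in parental and 373 CPM in double-knockout cells, with a log2 fold change of -0.09 in the authors' deposited table that was not called. APC (0.10) and GSK3B (0.19) were not called either.

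Wnt ligands and receptors were mixed, with 9 of 33 measured genes higher and 4 lower, near the background of 22.9% and 20.1%. WNT16, among the 15 largest falls above, is not in this list and is not counted. The ligand WNT11 went from 1.56 to 33.4 CPM, a log2 fold change of 4.42 in the authors' deposited table (approximate SE 0.36, edgeR adjusted p = 2.5e-33). The R-spondin receptor LGR6, with a mean log2 CPM under 1, went from 0.175 to 2.03 CPM. The co-receptors parted: LRP6 rose by 0.56 and LRP5 fell by 0.68 log2 units in the authors' deposited table. TCF7L2, the main TCF factor of intestinal epithelium, fell from 401 to 192 CPM (log2 fold change -1.07 in the authors' deposited table), and WLS, which escorts Wnt ligands to the surface, rose by 1.09 on that scale.

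The promoters of SP5 and CDX2, a pair of genes that rose, are shown because their first 250 bases upstream hold letters of the TCF/LEF motif. The letters searched were CTTTGAT and CTTTGAA on both strands, marked in capitals, in RefSeq windows (GRCh38.p14) that end at the annotated start. Of 35116 such windows, 2.26% held CTTTGAT and 3.8% held CTTTGAA. SP5 (chr2:170715087-170715336, plus strand) held 3 matches and CDX2 (chr13:27969316-27969565, minus strand) held 1. Windows were found for 10 of the 17 measured Wnt targets, of which SP5 held the first motif and SP5 and DKK1 the second.
SP5: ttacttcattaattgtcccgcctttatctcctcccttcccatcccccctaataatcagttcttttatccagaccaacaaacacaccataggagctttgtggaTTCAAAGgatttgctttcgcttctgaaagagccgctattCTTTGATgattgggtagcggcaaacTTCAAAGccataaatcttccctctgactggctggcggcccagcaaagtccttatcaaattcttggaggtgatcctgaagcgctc
CDX2: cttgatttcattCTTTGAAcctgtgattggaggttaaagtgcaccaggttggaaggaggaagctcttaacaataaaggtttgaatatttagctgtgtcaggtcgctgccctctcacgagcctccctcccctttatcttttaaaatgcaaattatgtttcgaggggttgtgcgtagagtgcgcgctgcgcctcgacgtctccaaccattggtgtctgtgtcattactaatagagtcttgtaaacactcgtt

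Targets of p53, the transcription factor that answers DNA damage and other stress, rose together. Of 47 measured genes in 4 lists, 34 rose and 1 fell, with a median log2 fold change of 0.57, against 22.9% higher and 20.1% lower among all listed genes. Under the F test 29 rose, against 16.3% of all listed genes. By role, 6 of 7 feedback genes, 4 of 8 arrest genes, 9 of 13 apoptosis genes and 15 of 19 repair and metabolism genes rose. The single fall was not called under the F test.

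MDM2, the ligase that degrades p53, went from 255 to 740 CPM, with a log2 fold change of 1.54 in the authors' deposited table (approximate SE 0.11, edgeR adjusted p = 7.0e-41). PHLDA3, an AKT inhibitor, went from 22.7 to 104 CPM, and the RNA-binding protein ZMAT3 from 52.1 to 132 CPM. CDKN1A, the p21 inhibitor of cyclin-dependent kinases, went from 143 to 299 CPM, with a log2 fold change of 1.07 in the authors' deposited table (approximate SE 0.16, edgeR adjusted p = 1.6e-10). The secreted factor GDF15 rose by 1.46 and the kinase PLK2 by 1.41 log2 units in the authors' deposited table. PLK2 stood at a log2 fold change of 1.22 in the ANKRD52 knockout as well.

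Death receptor and effector genes followed with smaller changes. TNFRSF10B, a TRAIL receptor, went from 144 to 252 CPM, PERP from 218 to 369 CPM and the pore-forming BAX from 52.0 to 74.3 CPM, with log2 fold changes of 0.80, 0.76 and 0.52 in the authors' deposited table. BBC3, the p53 target PUMA, had a value of -0.16 there and was not called. Metabolic and repair targets included C12orf5 (TIGAR, 40.4 to 108 CPM), SESN1 (22.1 to 43.2 CPM), SPATA18 (1.64 to 6.91 CPM) and DDB2 (62.4 to 93.0 CPM). EDA2R (mean log2 CPM under 1) stood at 7.23 CPM in the double knockout and under the level of 3 reads in parental cells. In the ANKRD52 knockout 3 of the 47 genes were higher and 5 lower. Over all listed genes that knockout had 1742 called (13.7%), 7.62% higher and 6.04% lower. The difference between the knockouts was called for 30 of the p53 targets, all higher in the double, against 34.5% called over all genes tested, 18.1% higher and 16.3% lower.

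Genes of sterol and fatty acid synthesis fell in large part. Of 27 measured genes of cholesterol synthesis and its control, 23 fell and 1 rose, with a median log2 fold change of -1.13. The rise, of 0.51 log2 units, was in a gene of uptake and regulation. Of 13 fatty acid synthesis genes 10 fell and none rose, with a median of -0.68. Over all listed genes 20.1% fell and 22.9% rose. Of the 20 cholesterol enzymes, 18 fell. They spanned the pathway from ACAT2 and HMGCS1 at its entry to DHCR7 at its end.

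INSIG1, which holds the SREBP activator in the endoplasmic reticulum, went from 103 to 16.7 CPM. Its log2 fold change in the authors' deposited table was -2.64 (approximate SE 0.11, edgeR adjusted p = 6.6e-122). SREBF2, the transcription factor of cholesterol genes, fell from 318 to 115 CPM (log2 fold change -1.46 in the authors' deposited table). The isomerase IDI1 went from 128 to 32.1 CPM, the squalene epoxidase SQLE from 111 to 41.9 CPM and the lanosterol synthase LSS from 110 to 36.5 CPM. PMVK, TM7SF2 and INSIG2 had log2 fold changes of -0.17, -0.37 and 0.31 in the authors' deposited table and were not called.

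In fatty acid synthesis the desaturase SCD went from 2683 to 769 CPM, the synthase FASN from 1976 to 970 CPM and the desaturase FADS1 from 153 to 63.5 CPM. Their log2 fold changes in the authors' deposited table were -1.80, -1.03 and -1.26. SREBF1, the regulator of this branch, fell by 0.76 on that scale. Of 7 measured genes of cholesterol efflux and LXR targets, SMPDL3A and MYLIP rose by 1.03 and 0.73 log2 units in the authors' deposited table. ABCA1 (0.52, mean log2 CPM under 1) and ABCG1 (0.38) were not called. The called share of these 7 genes was 28.6%, all higher, against 22.9% higher among all listed genes. In the ANKRD52 knockout 9 of the 27 cholesterol genes fell (6.04% of all listed genes did) and none rose, with a median of -0.25. By the test of the difference, 21 of the 27 were lower in the double than in the ANKRD52 knockout, against 16.3% of all genes tested.

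The SREBF2 promoter (RefSeq, GRCh38.p14, chr22:41832855-41833104, plus strand, 250 bases upstream of the start) is printed because it holds the SREBP motif searched, TCACNCCAC, once. The motif, in capitals, lay in 0.883% of the 35116 windows on either strand and in 1 of the 20 windows matched to cholesterol genes, that of SREBF2.
SREBF2: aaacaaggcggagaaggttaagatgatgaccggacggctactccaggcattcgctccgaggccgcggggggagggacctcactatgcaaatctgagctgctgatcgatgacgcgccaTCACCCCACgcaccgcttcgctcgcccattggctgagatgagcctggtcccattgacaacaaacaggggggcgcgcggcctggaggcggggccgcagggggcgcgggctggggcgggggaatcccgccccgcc

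Cell division genes were lower by small amounts. Of 42 measured genes of DNA replication, 17 fell and 2 rose, with a median log2 fold change of -0.16. In mitosis 16 of 29 genes fell and 1 rose, with a median of -0.25. Over all listed genes 20.1% fell and 22.9% rose. Under the F test the falls numbered 9 and 12, against 13.3% of all listed genes. The helicase subunits MCM5 (354 to 195 CPM) and MCM4 (582 to 351 CPM) fell most clearly, by 0.86 and 0.73 log2 units in the authors' deposited table. CDC20, the activator of the anaphase-promoting complex, fell by 0.64, and CCNB1, CCNA2 and BUB1 by 0.46, 0.43 and 0.47 there. The p53 target PCNA rose by 0.33 in the authors' deposited table, and TYMS (-0.07), RRM1 (-0.03) and RRM2 (0.02) were not called.

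Of 19 measured G1 regulators 5 were higher and 5 lower, near the background of 22.9% and 20.1%. CCND1, CCND3 and the kinase CDK6 rose by 1.88, 0.74 and 1.63 log2 units in the authors' deposited table, as did CDKN1A. The inhibitors CDKN2C and CDKN1B fell by 0.95 and 0.47 there, and CDK4 by 0.32.

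Some intestinal genes and the listed keratins were higher, and most other epithelial genes were not called. CDX2, the transcription factor that specifies intestine, went from 28.0 to 178 CPM, 6.36-fold higher, with a log2 fold change of 2.67 in the authors' deposited table (approximate SE 0.12, edgeR adjusted p = 1.9e-105). KLF5, a factor of crypt cells, went from 126 to 626 CPM and HNF4A, a factor of enterocytes, from 18.0 to 40.3 CPM. Of 12 measured genes of intestinal differentiation 6 rose and none fell, against 22.9% and 20.1% of all listed genes. The list also held MUC13, the lysozyme LYZ (0.0788 to 8.63 CPM) and the brush border protein VIL1 (0.0485 to 2.92 CPM). VIL1 is under a mean log2 CPM of 1, as is KRT20. KRT20, DPP4 and CA2, markers of mature enterocytes, had log2 fold changes of 0.52, 0.39 and -0.34 in the authors' deposited table and were not called.

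Keratins rose, those of simple epithelium among them. KRT8 went from 1529.6 to 4412 CPM, KRT18 from 619 to 1811 CPM and KRT19 from 677 to 1601 CPM, with log2 fold changes of 1.53, 1.55 and 1.24 in the authors' deposited table. KRT23 and KRT80 rose from 28.5 to 355 CPM and from 2.23 to 53.5 CPM, so all 5 keratins of the epithelial list rose. Beyond that list KRT13, KRT15 and KRT14 on chromosome 17 rose by at least 2-fold. Of 10 genes with symbols starting in KRT, 8 rose and 1 fell, with a median log2 fold change of 2.41. Among the 11877 genes 22.5% rose and 21.0% fell. CDH1, which encodes E-cadherin, went from 114 to 312 CPM, and its log2 fold change was 1.45 in the authors' deposited table (approximate SE 0.42, edgeR adjusted p = 0.0025). Over the 25 measured epithelial genes 8 rose and 3 fell (CLDN3, TJP3 and ESRP2), and 5 of the rises were keratins. Of 12 adhesion genes 2 rose and 2 fell, and of 8 regulators 1 rose and 1 fell. Over all listed genes 22.9% rose and 20.1% fell. Of 7 measured markers listed as defining a colorectal epithelial line, 6 rose and EPCAM, at 349 and 381 CPM, was not called. All 6 are also counted above in the epithelial or intestinal lists.

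Markers of other cell types were sparse. Of 17 such markers 5 were listed, and their summed level was 17.9 CPM in parental cells and 28.8 CPM in the double knockout. LYZ, VWF (0.530 to 2.53 CPM) and KDR (1.16 to 2.49 CPM) rose, the last 2 at a mean log2 CPM under 1, the macrophage marker CD68 fell from 4.18 to 1.07 CPM, and the fibroblast collagen COL1A1 (11.9 to 14.1 CPM) was not called. The defining leukocyte marker PTPRC, the endothelial PECAM1 and the fibroblast COL1A2 were not among the listed genes. The part of other cells in the rises of PRF1 and LYZ was not tested.

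Mesenchymal genes were partly raised. Of 11 measured genes 6 rose and none fell, against 22.9% and 20.1% of all listed genes. In the ANKRD52 knockout 8 of the 11 were higher and none lower, against 7.62% and 6.04% of all listed genes there. The median log2 fold change was 1.44 in that knockout and 0.97 in the double. Those that rose in the double knockout included HAS2, SPARC, SNAI2 (mean log2 CPM under 1), FN1 and ITGA5. The transcription factors ZEB1 (5.08 to 7.12 CPM) and ZEB2 (0.0536 to 0.0892 CPM) and the intermediate filament VIM (1.81 to 3.87 CPM) had log2 fold changes of 0.49, 0.74 and 1.10 in the authors' deposited table and were not called.

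**Figure D3:**
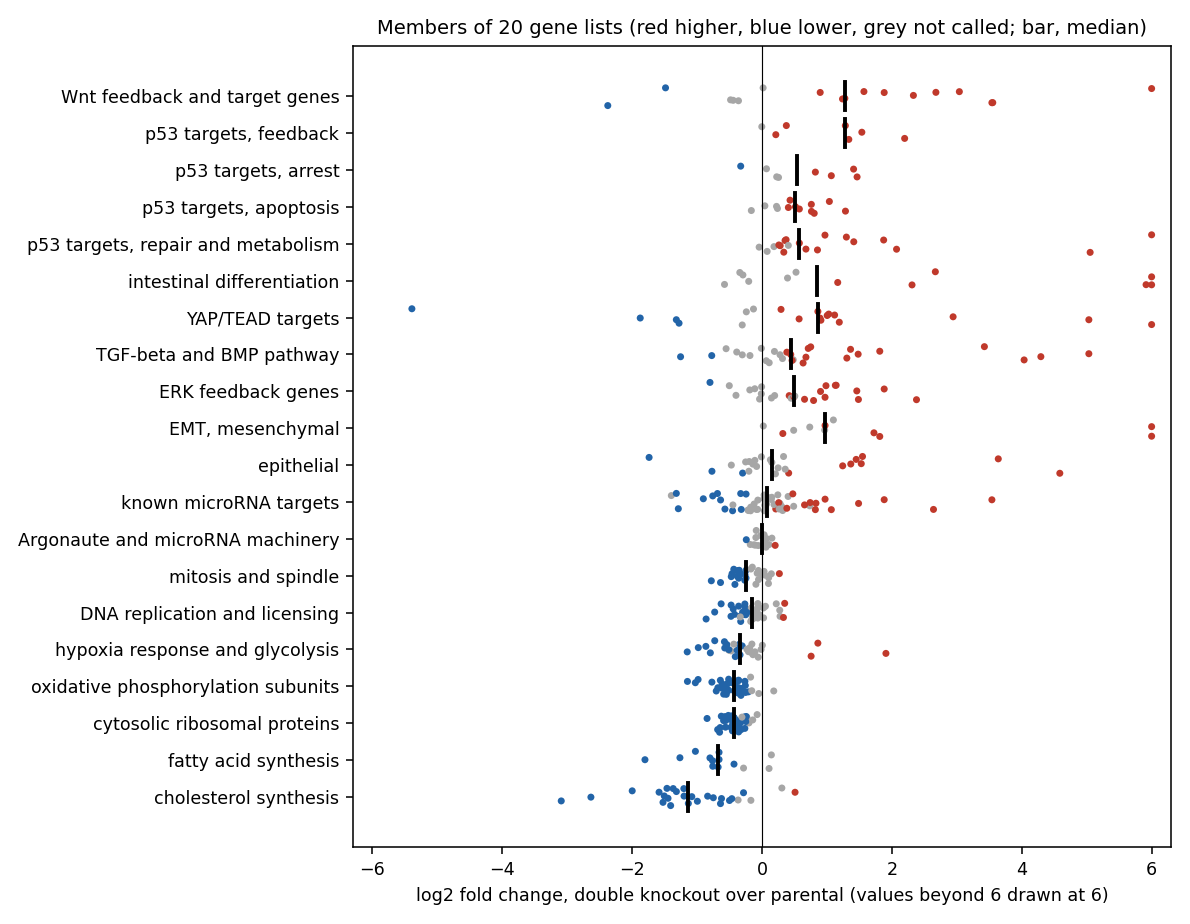
Log2 fold change of the double knockout over parental (horizontal axis) for the measured members of 20 gene lists (vertical axis), 1 point per gene, with a black bar at each list's median. The bars run from -1.13 for cholesterol synthesis to 1.28 for Wnt feedback and target genes and for p53 feedback genes.

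YAP and TEAD drive genes of cell tension and growth, and 12 of 19 measured targets rose and 4 fell, against 22.9% and 20.1% of all listed genes. CTGF, a matricellular protein, went from 0.971 to 7.47 CPM and TGFB2, a TGF-beta ligand, from 1.07 to 35.0 CPM, with log2 fold changes of 2.94 and 5.03 in the authors' deposited table. AMOTL2, MYOF, LATS2, AJUBA and PTPN14 rose by 0.86 to 1.19 on that scale. ARHGAP29 and NT5E (47.1 to 12.8 CPM) fell, as did the kinase AXL (-1.28 on the log2 scale of the authors' deposited table) and the coagulation factor F3 (43.5 to 17.4 CPM). In the ANKRD52 knockout 11 of these 19 targets were higher and none lower, against 7.62% and 6.04% of all listed genes there.

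The upstream 250 bases of ANKRD1 (RefSeq, GRCh38.p14, chr10:90921088-90921337, minus strand) are shown because ANKRD1 had the largest rise among genes with a parental level above that of 3 reads and the window holds the TEAD letters GGAATG at 2 places, in capitals. The letters lay in 11.9% of the 35116 windows on either strand and in 5 of the 15 matched to YAP targets.
ANKRD1: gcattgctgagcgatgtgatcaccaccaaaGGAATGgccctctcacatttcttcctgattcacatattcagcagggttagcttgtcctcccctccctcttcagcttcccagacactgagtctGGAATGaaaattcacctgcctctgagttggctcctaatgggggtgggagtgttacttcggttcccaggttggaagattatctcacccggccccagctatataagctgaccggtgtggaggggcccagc

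In the TGF-beta and BMP pathway 15 of 28 measured genes rose and 2 fell, against 22.9% and 20.1% of all listed genes. The ligands BMP7 (15.7 to 43.7 CPM), GDF11 (11.3 to 27.9 CPM) and BMP4 (503 to 845 CPM) rose. The inhibitors SMAD7 (2.34 to 25.1 CPM), BAMBI (12.9 to 254 CPM) and PMEPA1 (1.19 to 19.6 CPM) rose by 3.42, 4.29 and 4.04 log2 units in the authors' deposited table. BAMBI is also known as a Wnt target. TGFBR3 and the BMP target ID2 fell by 1.25 and 0.77 there, and ID1 (-0.19) and ID3 (-0.39) were not called. In the ANKRD52 knockout 9 of the 28 genes were higher and none lower, against 7.62% and 6.04% of all listed genes.

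In the list of EGF receptor family genes and ligands 6 of 12 measured genes rose and 3 fell. Of its 8 ligands 5 rose and 1 fell, against 22.9% and 20.1% of all listed genes. The ligands NRG1, TGFA (54.1 to 149 CPM), EREG (691 to 1289.6 CPM), BTC (3.24 to 9.09 CPM) and HBEGF (9.13 to 12.8 CPM) rose, while the ligand NRG2 fell from 4.11 to 2.64 CPM. AREG (3.75 to 5.32 CPM) and NRG4 (0.955 to 0.566 CPM) were not called. The receptors parted, with ERBB2 higher (122 to 158 CPM) and ERBB3 lower (65.7 to 52.5 CPM), and ERRFI1, an inhibitor of the receptor, fell from 923 to 154 CPM with a log2 fold change of -2.58 in the authors' deposited table. EGFR itself was not called (-0.15). Of 25 measured genes in the ERK feedback list 13 rose and 1 fell, against the same 22.9% and 20.1%. By role, 2 of 6 phosphatases, 4 of 7 feedback genes, 1 of 5 transcription factors and 6 of 7 other members rose. The other members include CCND1 and HBEGF, which are also counted in lists above. The rises included SPRY1 (5.96 to 31.0 CPM), the ERK phosphatase DUSP6 (320 to 896 CPM), the transcription factor ETV4 (47.1 to 103 CPM) and the ephrin receptor EPHA2 (147 to 324 CPM). SPRY4, DUSP5 and ETV5 had log2 fold changes of -0.04, -0.01 and -0.01 in the authors' deposited table and were not called.

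MicroRNA silencing is the process in which ANKRD52 and CSNK1A1 act on opposite sides, and a microRNA finds its targets through its seed, bases 2 to 8. The let-7 and miR-200 families are shown because the best known of their targets differed between the knockouts. Mature sequences are from RefSeq (GRCh38.p14), with the seed in capitals. The let-7 pair shares 1 seed, miR-200b, miR-200c and miR-429 share another, and miR-141 and miR-200a have their own.
let-7a-5p: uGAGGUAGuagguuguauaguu
let-7g-5p: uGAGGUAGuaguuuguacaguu
miR-200b-3p: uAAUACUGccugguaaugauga
miR-200c-3p: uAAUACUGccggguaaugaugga
miR-429: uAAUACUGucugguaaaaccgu
miR-141-3p: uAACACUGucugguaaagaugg
miR-200a-3p: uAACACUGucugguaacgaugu

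Known targets of microRNAs did not move in 1 direction in the double knockout. Of 52 measured targets 14 rose and 11 fell, with a median log2 fold change of 0.08. The called share of each direction was near the background of 22.9% and 20.1%. The rises included AXIN2 and CDKN1A, which are also counted above among Wnt and p53 genes. In the ANKRD52 knockout 15 of the same targets were higher and 3 lower, against 7.62% and 6.04% of all listed genes in that comparison. Among 12 let-7 targets 3 rose and 3 fell in the double knockout, and among 12 miR-200 targets 3 rose and 1 fell, where 9 were higher and none lower in the ANKRD52 knockout, read against the same 7.62% and 6.04%.

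HMGA2, a chromatin protein and a classic let-7 target, stood at 243 CPM in parental cells, 830 without ANKRD52 alone and 151 without both. The authors' deposited tables gave it log2 fold changes of 1.77 without ANKRD52 and -0.69 without both (edgeR adjusted p = 1.1e-04). IGF2BP2, also a let-7 target, fell from 233 to 124 CPM in the double. For the miR-200 targets, ZEB1 had log2 fold changes of 2.78 and 0.49, single then double, in the authors' deposited tables, SEC23A, a coat protein, 0.45 and -0.18, and the actin regulator CFL2 0.40 and -0.64. MSN, which links actin to the membrane, had 0.48 and 0.83 there and rose in the double knockout.

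The difference between both knockouts was tested gene by gene from the deposited fold changes, in which the parental level drops out. Of 11876 genes 4092 differed (34.5%), 2151 higher in the double (18.1%) and 1941 lower (16.3%), at an adjusted p under 0.05 from a normal test. With a wider variance, the sum of both squared SEs, 1984 differed. HMGA2 was lower in the double (adjusted p = 1.4e-49), as were ZEB1 (1.5e-04), VIM (6.5e-07) and SEC23A (3.1e-08). CDH1 was higher in the double (adjusted p = 1.3e-09), as were EPCAM (5.0e-06), ESRP1 (1.6e-05) and GRHL2 (2.5e-04), a factor that maintains epithelium. All 8 of these differences kept their call with the wider variance. The named genes do not stand for their lists alike. Of 9 mesenchymal genes tested 2 were higher and 2 lower in the double, against 18.1% and 16.3% of all genes tested. Among 25 epithelial genes 18 were higher and 1 lower. For SPARC, at 8.04 (single) and 8.17 (double) in the authors' deposited tables, the difference was 0.13 with an approximate SE of 1.12 and was not called. That SE comes from comparisons with parental cells, where SPARC stood at 0.323 CPM, so the missing call does not show that the knockouts were alike.

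**Figure D4:**
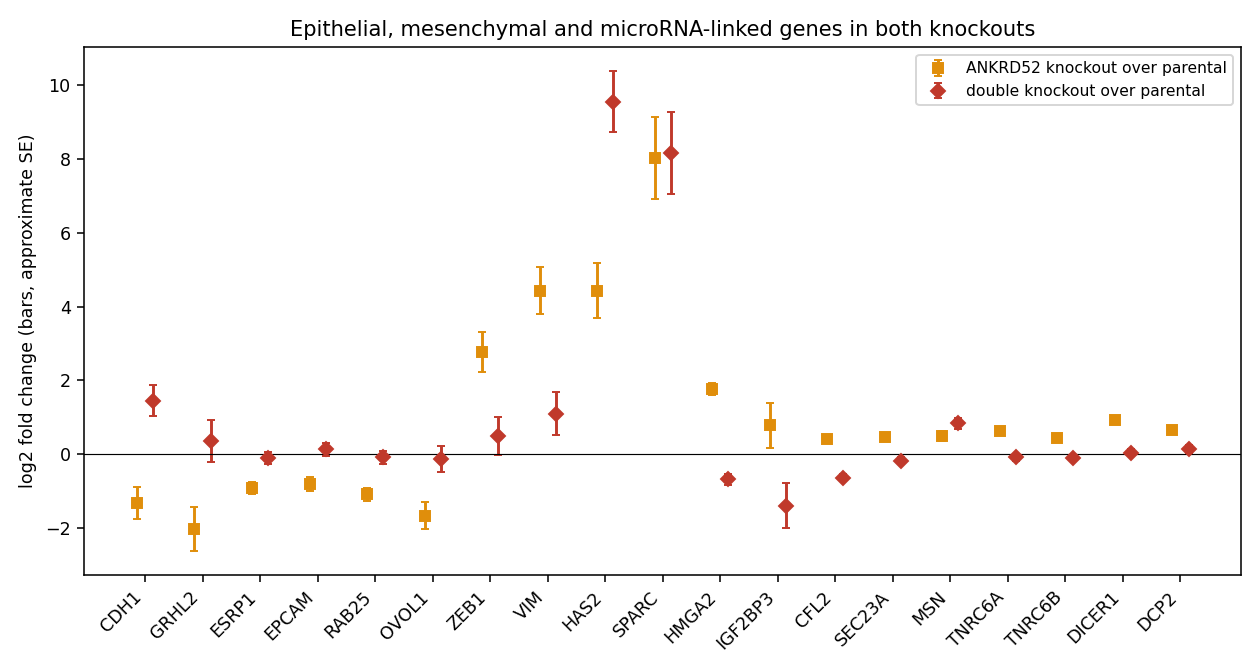
Log2 fold change over parental (vertical axis, bars 1 approximate SE) of 19 genes (horizontal axis) without ANKRD52 (squares) and without both genes (diamonds), from the authors' deposited tables that share the parental libraries. Squares lie at -0.81 for EPCAM and 0.92 for DICER1, while the diamonds lie at 0.13 and 0.04.

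Few genes of the silencing machinery itself were called, against 43.0% of all listed genes. Of 16 measured genes of Argonaute proteins and microRNA processing 12.5% were called. DROSHA rose by 0.20 and DIS3L2 fell by 0.24 log2 units in the authors' deposited table, and both calls were lost under the F test. AGO2 was 82.0 CPM in parental and 80.9 CPM in double-knockout cells. AGO1, AGO3 and AGO4 had log2 fold changes between -0.09 and 0.11 in the authors' deposited table, and the Argonaute partners TNRC6A, TNRC6B and TNRC6C between -0.10 and 0.07, none called. DICER1, the let-7-targeted nuclease that releases mature microRNAs, stood at 99.5 CPM in parental cells, 188 without ANKRD52 alone and 102 without both. Of 22 genes of deadenylation and decapping 2 rose and 3 fell, or 22.7% called against the same 43.0%. The deadenylase CNOT6L was the largest fall, at -0.41 log2 units in the authors' deposited table. For DCP2, the decapping enzyme, the values in the authors' deposited tables were 0.64 (single) and 0.14 (double).

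Messages for ribosomes and the respiratory chain were lower almost throughout. Of 39 measured cytosolic ribosomal proteins 34 fell and none rose. Of 37 subunits of oxidative phosphorylation 33 fell and none rose. Each list had a median log2 fold change of -0.43. By comparison, 20.1% of all listed genes fell and 22.9% rose. Individual falls were modest: RPL13 (569 to 316 CPM) and RPS12 (449 to 280 CPM) fell by 0.85 and 0.68, and ATP5D (102 to 45.8 CPM), NDUFS7 (34.7 to 17.0 CPM) and CYC1 (256 to 129 CPM) by 1.15, 1.03 and 0.98 log2 units in the authors' deposited table. The same lists had medians of -0.30 and -0.20 in the ANKRD52 knockout. Transcript length and GC content moved with the fold changes over all genes. With genes in 5 classes of near-equal size, the 2280 shortest transcripts had a median log2 fold change of -0.15 and the 2276 longest 0.11. The 2280 genes of lowest GC content had a median of 0.09 and the 2280 of highest GC content -0.14. Median transcript length was 1326 bases for the ribosomal proteins and 1263 bases for the respiratory subunits. The part of length and GC content in these falls was not tested.

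Of 30 measured genes of the hypoxia response and glycolysis 14 fell, 3 rose and 13 were not called. This list and the MYC list below are read against 20.1% lower and 22.9% higher among all listed genes. The glycolytic enzymes PFKL, HK2, TPI1, GPI, ALDOA and ENO1 fell by 0.51 to 0.80 log2 units in the authors' deposited table. The glucose transporter SLC2A1 (361 to 1354 CPM), the pyruvate kinase PKM (3042 to 5138 CPM) and the oxygen sensor EGLN1 (84.1 to 153 CPM) rose. Of 32 measured genes of the MYC network and ribosome biogenesis 16 fell and 2 rose, among them the nucleolar proteins NPM1 (701 to 495 CPM) and FBL (360 to 220 CPM). UTP20, a factor of small subunit assembly, rose from 85.2 to 260 CPM.

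Of 27 measured genes of the unfolded protein response 12 rose and 4 fell, with XBP1 (49.1 to 85.5 CPM), DNAJB9 (11.5 to 22.8 CPM) and HERPUD1 (49.9 to 70.5 CPM) higher and TRIB3 (48.3 to 26.5 CPM) lower. Of 18 NRF2 targets 6 rose and 6 fell. The quinone reductase NQO1 went from 352 to 1247 CPM and the exporter ABCC3 from 13.5 to 58.3 CPM, while the exporter ABCC2 went from 269 to 47.9 CPM. Among lysosomal and autophagy genes 10 of 32 rose and 4 fell, with the proteases CTSB (219 to 463 CPM) and CTSD (99.9 to 263 CPM), the phosphoinositide-binding WIPI1 (23.7 to 70.8 CPM) and MAP1LC3B (62.8 to 114 CPM) higher. Of 21 DNA repair genes 4 rose and 5 fell, and of 15 FOXO targets 2 rose and 4 fell, both near the background of 22.9% and 20.1%. The other counts of this paragraph are read against the same shares.

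Inflammatory and survival genes gave smaller groups of changes. Their counts are read against 22.9% higher and 20.1% lower among all listed genes. The share of interferon-stimulated genes that fell was near that background. In the NF-kB list 8 of 15 rose and 1 fell, including the chemokines IL8 (0.428 to 2.88 CPM) and CXCL1 (0.441 to 2.96 CPM), both under a mean log2 CPM of 1, and NFKB1 was the fall (71.2 to 41.4 CPM). Of 20 interferon-stimulated genes 9 rose and 4 fell, with IFITM2 higher (72.2 to 148 CPM) and ISG15 lower (22.3 to 13.3 CPM). In the ANKRD52 knockout 11 of the 20 were higher and none lower, against 7.62% and 6.04% of all listed genes there. Of 8 genes of HLA class I presentation ERAP1 and ERAP2 rose and PSMB10 fell in the double knockout. The called share of these 8 was 37.5%, against 43.0% of all listed genes. In the BCL2 family 6 of 15 rose and 2 fell: the killer BIK went from 7.14 to 42.2 CPM, the protector BCL2L1 from 213 to 448 CPM, and BCL2 fell from 6.84 to 4.60 CPM.

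Immediate early and developmental pathways completed the lists, with counts read against 22.9% higher and 20.1% lower among all listed genes. In the AP-1 and Notch lists the share that fell was near that background. Of 7 measured Hedgehog genes 42.9% were called and of 14 clock genes 35.7%, against 43.0% of all listed genes. Among 16 measured AP-1 and immediate early genes 7 rose and 3 fell, with ATF3 (19.5 to 47.9 CPM), FOSL2 (48.7 to 101 CPM) and EGR3 (4.23 to 13.3 CPM) higher and JUNB (89.3 to 47.4 CPM), JUND and IER2 lower. In the Hedgehog pathway the receptor PTCH1 (19.5 to 155 CPM) and the factor GLI3 (0.0568 to 9.05 CPM) rose, and GLI1 fell from 5.59 to 3.05 CPM, a call lost under the F test (adjusted p = 0.094). Of 17 Notch genes 7 rose and 4 fell, with JAG1 (99.1 to 249 CPM), HES2 (log2 fold change 1.71 in the authors' deposited table) and HEY2 (0.115 to 2.23 CPM, mean log2 CPM under 1) higher and JAG2 (99.7 to 55.0 CPM) lower. Among 14 clock genes CLOCK rose from 148 to 317 CPM, and DBP (25.2 to 7.55 CPM), PER1 (95.2 to 50.6 CPM), BHLHE40 and BHLHE41 fell.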

How the data were processed

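Genes and lists were chosen with earlier results of these data known. The authors deposited 1 edgeR table per knockout, each against the same parental libraries. Per the file headers they hold log2 fold changes and mean log2 CPM, a likelihood ratio (a score here), a p-value and its FDR. Tools and build listed, per the submitters' processing notes, were edgeR 3.8.6, featureCounts 1.4.6, TopHat2 2.0.12 and hg19. The deposited p-values equal chi-square tails of the ratio, adjusted by Benjamini-Hochberg over 12756 genes. The approximate SE was the absolute log2 fold change over the root of the ratio. Group CPM was rebuilt from the mean CPM and 3 fold changes, taking the 4 groups as equal in weight, and the 3-read level assumes a prior count of 0.125. The double and ANKRD52 knockouts were compared by a normal test on the difference of fold changes (variance, the average of the squared SEs). That variance takes the parental spread as equal to that of the knockouts. The test was tried on simulated data, with the outcome not reported here. Named genes were the 15 largest and the 10 smallest-p changes each way, plus members of the lists. RefSeq (GRCh38.p14) gave sequences, lengths and gene order, with 253 genes unmatched. Python 3.11.15 and scipy 1.17.1 were used. Some members of the lists are counted but not reported by name here.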

Additional observations from a re-analysis of the deposited data

How the results depend on the processing

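With a fold change of at least 2 required, 931 genes were called, 695 higher and 236 lower. The F test left 1655 genes lower, and moved 20 of 96 counts of list members by more than 1.5 times, against 17 of 96 at an adjusted p under 0.01. It removed the calls of FAM83F, FAM83G, ERBB3, RNF43, CDKN1B, ESRP2, KDR, HBEGF, DROSHA, DIS3L2, ERAP2, PSMB10, BCL2, GLI1 and BHLHE41 among genes named above. The comparison of the double with the ANKRD52 knockout gave 4092 genes, 1984 with the sum of both squared SEs as variance and 2466 with a t tail of 8 degrees of freedom. The cause of these shifts was not tested beyond the wider tail or variance itself. Other thresholds, level filters and centring on the median kept the count of called genes between 3813 and 5964, as did leaving out genes under the 3-read level (5155), an alternative added after seeing the data. No paired analysis was possible because the tables used hold 1 value per group, and for the same reason no library could be left out.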

Other observations

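Several large changes lay beside each other on a chromosome. In RefSeq gene order (GRCh38.p14), 17 runs of at least 3 neighbouring listed genes were called in the same direction with a change of at least 2-fold, 13 higher and 4 lower. The APOBEC3 cytidine deaminases, which edit viral DNA, formed a run of 6 higher genes on chromosome 22, with APOBEC3C at 45.1 CPM in parental and 194 CPM in double-knockout cells and APOBEC3F at 19.4 and 168 CPM. The homeobox genes HOXB5 to HOXB9 on chromosome 17 formed a run of 5, with HOXB6 going from 24.1 to 78.5 CPM and HOXB7 from 57.3 to 121 CPM. On chromosome 18 the desmosomal cadherins DSC3, DSC2 and DSG3 rose together, and DSC2 went from 70.3 to 371 CPM.

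Runs of lower genes included SPOCK3, ANXA10, DDX60, DDX60L and PALLD on chromosome 4, where DDX60L went from 71.9 to 11.6 CPM and the actin-binding PALLD from 500.5 to 165 CPM. ATG12, AP3S1 and ARL14EPL on chromosome 5 formed another, with the autophagy gene ATG12 going from 147 to 65.9 CPM. CCDC69, GM2A, SLC36A1, FAT2, SPARC and ATOX1 on the same chromosome rose as a run of 6.

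Over whole chromosomes the median log2 fold change ran from -0.11 on chromosome 19 to 0.08 on X. In windows of 40 genes the lowest median was -0.39, on chromosome 16 from UNKL to ATP6V0C, where 25 genes fell and 0 rose, and the highest was 0.40, on chromosome 6 from FYN to L3MBTL3, where 21 rose and 5 fell. Medians of the chromosome 16 window were -0.19 in both other knockouts.

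Grouping genes by the start of their symbol, a rule chosen after the data were seen, gave 108 groups of at least 12 genes. Collagens (COL) had the highest median log2 fold change, 0.67, with 10 of 17 higher and none lower. Among the 11877 genes 22.5% were higher and 21.0% lower. The collagens that rose included COL17A1 of hemidesmosomes (2.49 to 55.2 CPM). Subunits of respiratory complex I (NDUFA) had the lowest, -0.42, followed by the ribosomal proteins of the large and small subunit, and the mitochondrial ribosomal proteins MRPL at -0.27.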
